A study of Rattus norvegicus with 12 samples.

Results

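Two-pore potassium channel genes were followed across 12 two-colour arrays of rat cortical neurons exposed to a volatile anaesthetic. The members were the 10 genes Kcnk1, Kcnk2, Kcnk3, Kcnk4, Kcnk6, Kcnk9, Kcnk10, Kcnk12, Kcnk13 and Kcnk15, taken by their symbol in the platform annotation. A probe carried the symbol for 9 of them, 1 probe each, out of 9653 named genes and 21575 spots. Kcnk15 was not analysed here, nor were 5 further genes of the family (Kcnk5, Kcnk7, Kcnk16, Kcnk17 and Kcnk18), for none of which a probe carried the symbol. Kcnk1 had too few values for a test, which left 8 genes.

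The neurons came from fetal brains of 3 rats at pregnancy day 17 and were in their day 16 of culture when exposed. The 4 groups, with 3 arrays each, were halothane at 1 MAC (about 1%), halothane at 3 MAC (about 3%), isoflurane at 3 MAC (about 4%) and untreated control plates in air. MAC stands for minimum alveolar concentration and scales the dose of a volatile anaesthetic by its potency. Exposure lasted 6 h in a gas-tight chamber and was followed by 6 h of recovery, while control plates stood in the same incubator outside the chamber, so that gas and chamber cannot be told apart. Cells were kept apart by mother, but which plates share a mother is not given, so the p-values measure the spread between plates, part of which may be technical.

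Every value is a log2 ratio of 1 sample (Cy5) over a pool of control RNA (Cy3). A value of 0 is the level of the pool, and 1 is double that level. The log base of the deposited values (10) and the direction are likely and not stated, and under the opposite reading higher would become lower throughout. A ratio says nothing about how strongly a gene is expressed, so the levels of different channels were not compared with each other, and the label of cortical neurons could not be checked against the presence of its markers. In such bulk RNA, fewer cells of a type and less RNA per cell cannot be told apart.

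Two-pore potassium channels carry the background, or leak, potassium current that holds a neuron near its resting potential. Each subunit has a pair of pore loops, and subunits assemble as dimers. Several members are direct targets of volatile anaesthetics at the protein level. TREK-1 (Kcnk2), TREK-2 (Kcnk10) and the TASK channels (Kcnk3, Kcnk9) are opened by halothane and isoflurane, which hyperpolarises neurons, whereas THIK-1 (Kcnk13) is named for its inhibition by halothane. The arrays measured transcripts and not channel current.

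The array of halothane 1 MAC replicate 1 stood apart. Its median was 0.28, with medians of −0.005 to 0.005 on the other 11, and its SD over all spots was 0.84 against 0.32 to 0.49 on the others. Of the 471 spots at the 100-fold limit of the values on at least 10 arrays, 0 were at it on this array. On each of the others 467 to 471 were. It had 330 exact zeros, against 953 to 2124 on the others. Why its values differ was not tested, and the reported fit did not rescale them. That array was the highest or the lowest of the 12 for 4 of the 8 channel genes (Kcnk2 and Kcnk4 lowest, Kcnk10 and Kcnk12 highest), and for 66.2% of all features with 12 values. Across genes, control 2 correlated at 0.75 to 0.77 with the 3 halothane 3 MAC arrays, and at 0.07 and −0.05 with controls 1 and 3. Both arrays were left out in turn, and values without them stand beside many, though not all, of the differences that they moved. With any one array left out, the differences of Kcnk9 and Kcnk13 from control stayed between −0.17 and 0.04.

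Kcnk12 showed the largest difference between groups of the 8 channel genes, between the halothane doses, although it missed the test over all features. It encodes THIK-2, a relative of THIK-1 that carries little current of its own because it is largely retained inside the cell. Its ratio was 0.98, 0.52 and 0.48 on the halothane 1 MAC arrays, and −0.16, −0.51 and −0.18 on the halothane 3 MAC arrays. With isoflurane at 3 MAC it was 0.38, 0.13 and 0.04, and on the controls −0.01, −0.49 and 0.16. All 3 low-dose halothane arrays lay above the other 9, and all 3 high-dose halothane arrays lay below all isoflurane arrays but overlapped the controls.

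Group means of Kcnk12 were 0.66 ± 0.28 (SD, n = 3) with halothane 1 MAC, 0.18 ± 0.18 with isoflurane, −0.11 ± 0.34 in controls and −0.28 ± 0.20 with halothane 3 MAC. The dose comparison asks how the response depends on concentration. The level at 3 MAC was lower than at 1 MAC by 1.93-fold, a difference of −0.95 ± 0.21 (SE, 95% interval −1.40 to −0.50), and its adjusted p of 0.062 in limma missed the threshold of 0.05. The smallest adjusted p of any feature in that comparison was 0.0607, and Kcnk12 ranked 183 of 16546 features by p. Against control, the 1 MAC group was 1.71-fold higher (0.77 ± 0.21, interval 0.32 to 1.23, rank 60), with an adjusted p of 0.626. This difference was 0.59 without control 2, 0.62 without halothane 1 MAC replicate 1 and 0.43 without both. It was 0.57 with arrays weighted by their fit and 0.91 without control 3. With all arrays rescaled it was 0.66 (quantile normalisation) and 0.61 (median centring and scaling to one median absolute deviation).

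Both comparisons of a 3 MAC group with control gave intervals that cover 0. Halothane 3 MAC and control differed by −0.17 (interval −0.62 to 0.28, adjusted p = 1 in limma) and isoflurane and control by 0.29 (−0.16 to 0.75, adjusted p = 0.739). Control 2 weighed on both, which were −0.36 and 0.11 without it, and without control 3 they were −0.03 and 0.43. Between the agents at 3 MAC, Kcnk12 was lower with halothane by 0.47 ± 0.21 (difference −0.47, interval −0.92 to −0.02, adjusted p = 0.277). Halothane at 1 MAC and isoflurane at 3 MAC differ in both agent and dose and were not compared.

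**Figure D1:**
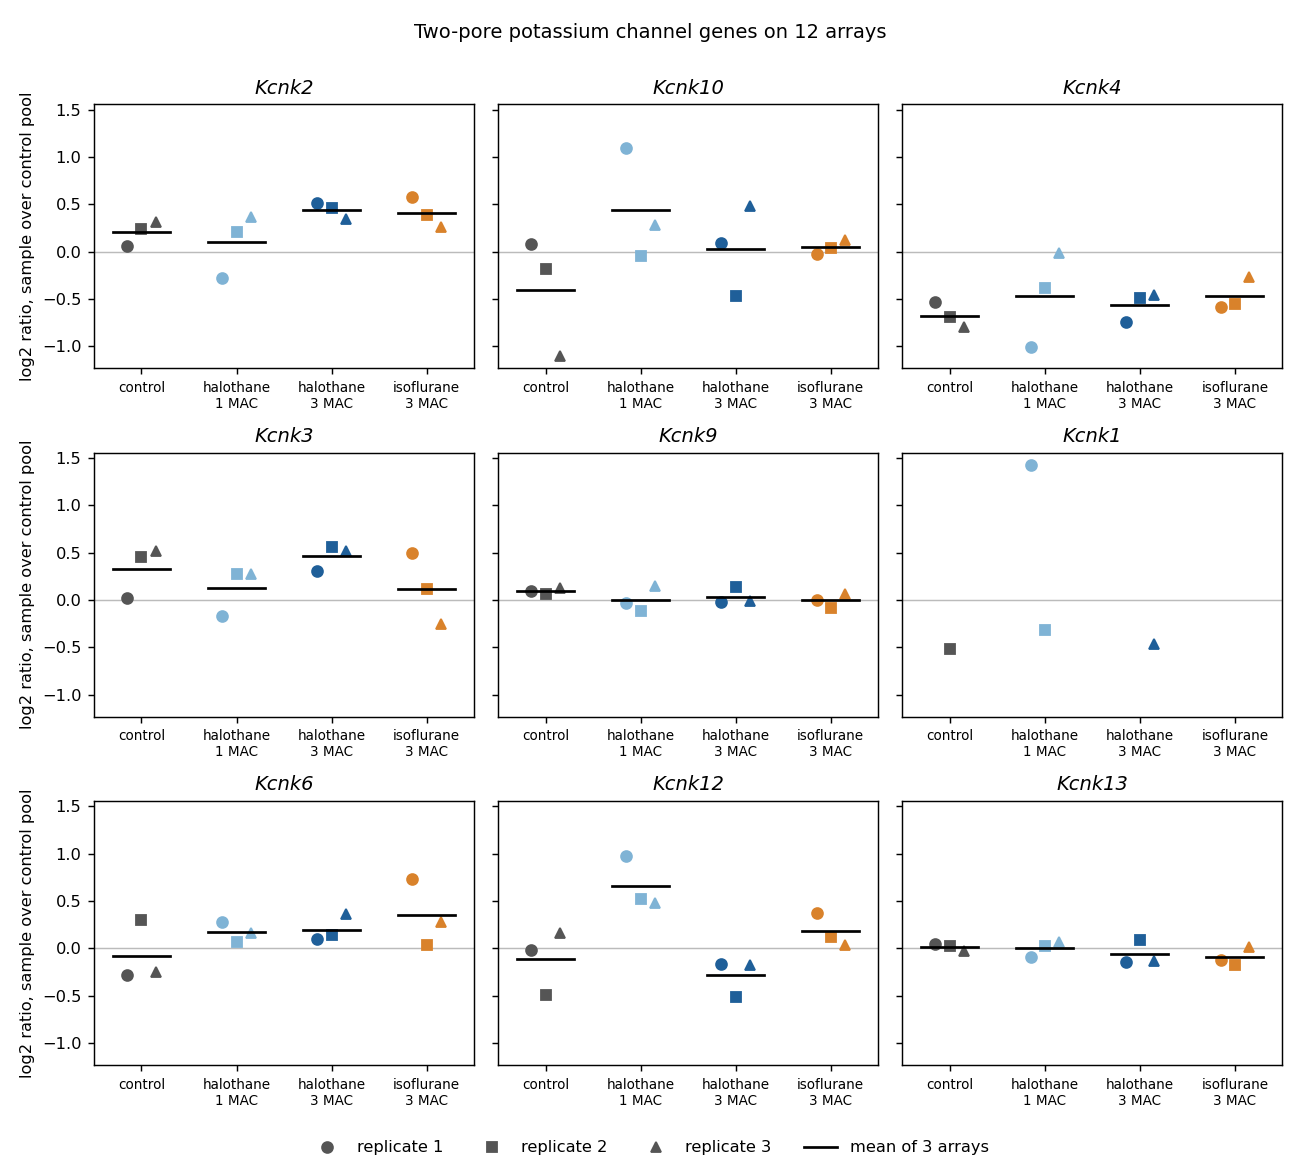
Log2 ratio of each sample over the control pool (y axis) for the 9 channel genes with a probe, by group (x axis), 1 point per array with the symbol giving the replicate number and a bar at the mean of 3 arrays. The halothane 1 MAC points of Kcnk12 (0.48 to 0.98) lie above its other 9 points, the points of Kcnk4 are below 0 on all 12 arrays, and Kcnk1 has 4 points, its other 8 values being exact zeros.

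The dose difference of Kcnk12 kept its sign in each setting tried, from −1.04 without halothane 1 MAC replicate 3 to −0.73 with arrays weighted by their fit. Its adjusted p passed the threshold with array weights (0.00116), without control 2 (0.0161), and without both control 2 and halothane 1 MAC replicate 1 (difference −0.79, 0.00936). Of all 16546 features, 4194, 698 and 1637 passed in these settings, against 0 in the reported fit. Kcnk12 did not pass without halothane 1 MAC replicate 1 alone (−0.79, 0.0664), nor without any one of the 3 high-dose arrays (0.185 to 0.24). Control arrays do not enter this difference and act on it through the estimate of the spread alone. The last pair of arrays was chosen for omission after the data had been seen.

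**Figure D2:**
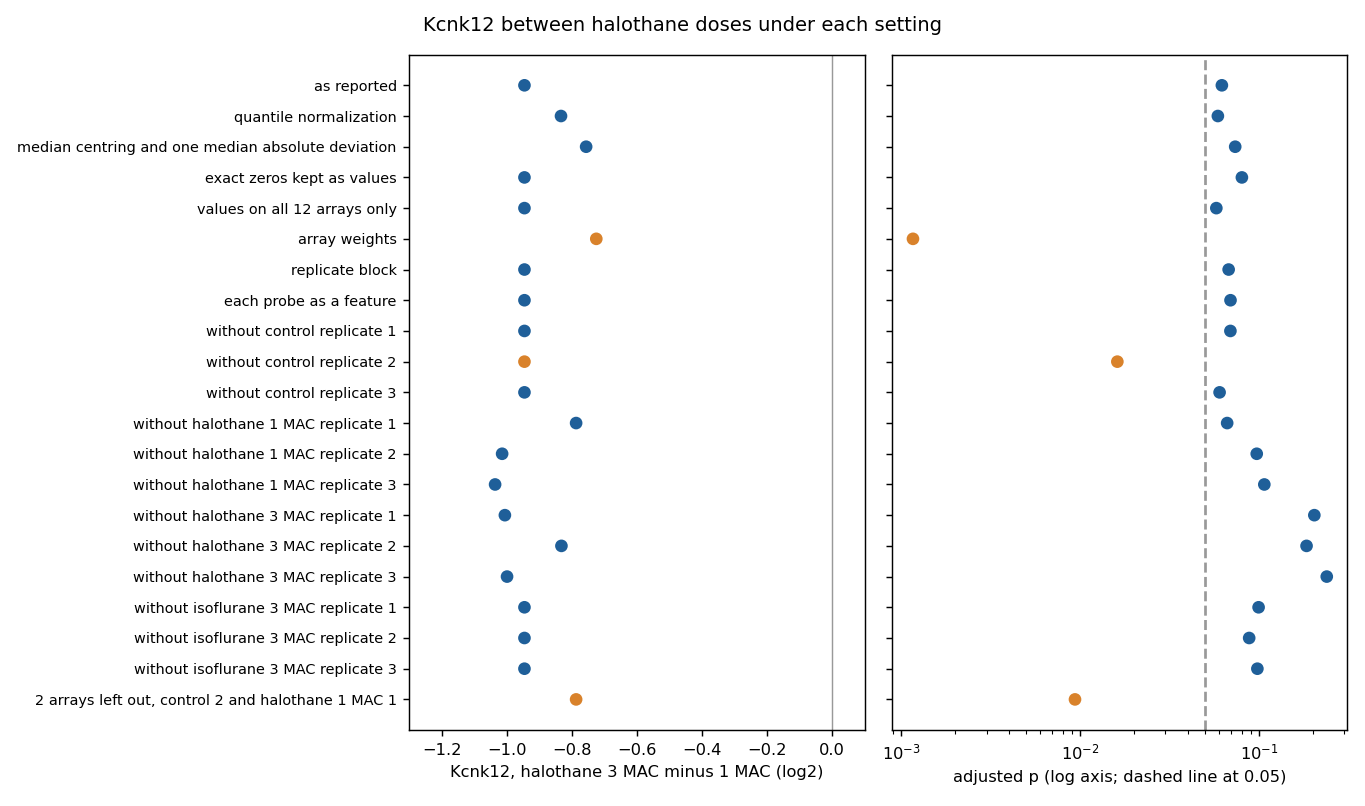
Kcnk12 between the halothane doses, 3 MAC minus 1 MAC, as log2 difference (left) and adjusted p on a log axis (right) for the reported fit and each alternative, 1 row each. Orange points are below an adjusted p of 0.05 (dashed line). The difference stays between −1.04 and −0.73, and 3 alternatives pass. These are array weights, control 2 left out and the pair of arrays left out, where 4194, 698 and 1637 of 16546 features passed.

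Marker lists of glial cells differed along the same arrays, and not all in 1 direction. Over 11 astrocyte markers the mean ratio lay between −1.03 and −0.92 on the halothane 3 MAC arrays, between 0.07 and 0.13 with halothane 1 MAC and between 0.06 and 0.24 with isoflurane. It was −0.95 on control 2, and 0.27 on each of controls 1 and 3. Over 7 microglia markers it lay between −0.66 and −0.46 with halothane 3 MAC, −0.18 and 0.48 with halothane 1 MAC, −0.57 and 0.56 with isoflurane and −0.47 and 0.15 in controls. Control 2 had the lowest Kcnk12 ratio of the controls and the lowest astrocyte and microglia means. Oligodendrocyte lineage markers ran the other way. Their mean over 8 genes was 0.16 on control 2 against −0.18 and −0.20 on controls 1 and 3, between 0.08 and 0.21 with halothane 3 MAC, between −0.18 and −0.05 with halothane 1 MAC and between −0.14 and 0.64 with isoflurane. The part of glial RNA in the Kcnk12 values was not tested.

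Over 10 neuron markers the mean ratio lay between −0.06 and −0.02 with halothane 3 MAC, between −0.56 and −0.15 with halothane 1 MAC, between −0.26 and −0.08 with isoflurane and between −0.19 and 0.09 in controls. With halothane 3 MAC against 1 MAC, 0 of 11 astrocyte markers stood above 0, where 41.4% of all features did, with a median difference of −0.73 against −0.08 for all features. In that comparison 0 of the 11 passed the adjusted test (0% of all features), and 7 were lower at an unadjusted p under 0.05 in limma (18.5% of all features in either direction). Without control 2, 6 of the 11 passed as lower, where 698 of all 16546 features passed, and without halothane 1 MAC replicate 1, 2 stood above 0 and 0 passed. For the oligodendrocyte markers 7 of 8 stood above 0 (median 0.23, 0 past the test). With halothane 3 MAC against control, 1 of 11 astrocyte markers stood above 0 (median −0.69), and 0 passed. Without control 2, 7 of the 11 passed as lower against control (median −1.03), where 465 of 16546 features passed. Against isoflurane at 3 MAC, where 3.51% of all features passed, 4 of 11 astrocyte markers were lower, among them the intermediate filament gene Gfap (−2.94 ± 0.47, adjusted p = 0.017) and the glutamate transporter Slc1a3 (−1.19 ± 0.25, 0.0293). The other 2 were Sparcl1 and Clu. Gad1 (1.21 ± 0.25) and Slc32a1 (1.02 ± 0.22), genes of inhibitory neurons, were higher among the neuron markers in that comparison. Against control, Gad1 stood at −1.01 ± 0.25 with isoflurane and Slc32a1 at 0.27 ± 0.22 with halothane 3 MAC, and neither passed. Without control 2 these were −0.66 and 0.48. Of the 10 neuron markers 5 stood above 0 between the agents at 3 MAC, with a median of −0.08. Nefl was lower (−0.53 ± 0.17, adjusted p = 0.127 in limma). It passed as lower without halothane 1 MAC replicate 1 (0.0269), where 2047 of 16546 features passed. Of the oligodendrocyte (8 tested), endothelial and mural (7) and meningeal and choroid plexus (7) markers, 1 passed in any of the 5 comparisons of groups, the choroid plexus gene Ttr, higher with halothane than with isoflurane at 3 MAC (log2 difference 4.14 ± 0.81, adjusted p = 0.0234). Without control 2, Ttr also passed between halothane 3 MAC and control (3.37, 0.00822) and between the halothane doses (2.76, 0.00951). There 465 and 698 of 16546 features passed. Of the 7 meningeal and choroid plexus markers, 5 and 3 stood above 0 in these comparisons (medians 0.35 and −0.12). Between the agents, on all arrays, 6 of the 7 stood above 0 (median 0.24), and the choroid plexus marker Folr1 was at −0.02.

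**Figure D3:**
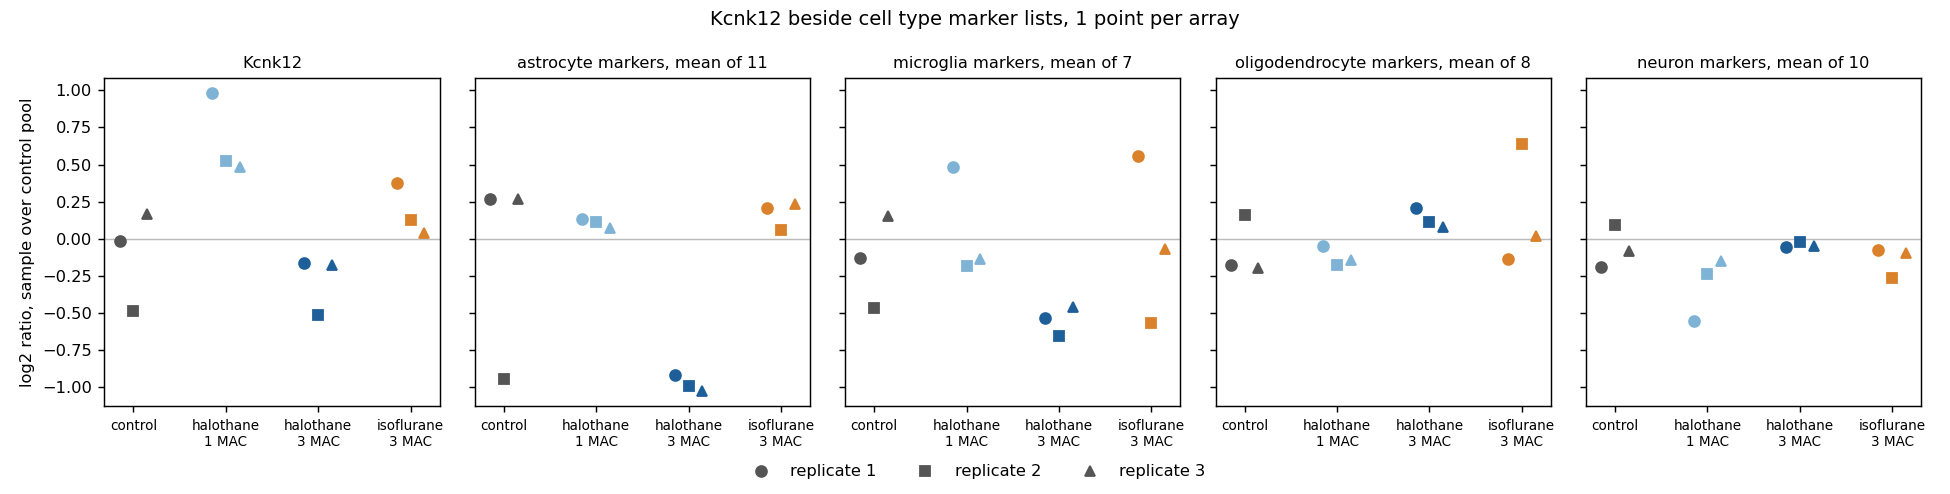
Log2 ratio over the control pool (y axis) of Kcnk12 and the mean ratio of 11 astrocyte, 7 microglia, 8 oligodendrocyte lineage and 10 neuron markers on each array, by group (x axis), with symbols for replicate numbers. The halothane 3 MAC arrays and control 2 hold the 4 lowest astrocyte means (−1.03 to −0.92) and the 4 lowest Kcnk12 ratios (−0.51 to −0.16). On the same 4 arrays the oligodendrocyte means are above 0 (0.08 to 0.21), as on isoflurane replicates 2 (0.64) and 3 (0.02). The microglia mean of isoflurane replicate 2 (−0.57) is below that of control 2 (−0.47).

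Kcnk13, which encodes THIK-1, the halothane-inhibited channel that is also the main leak channel of microglia in rodents, was flat. Its 12 ratios ran from −0.17 (isoflurane replicate 2) to 0.09 (halothane 3 MAC replicate 2). Its residual SD of 0.095 was at percentile 2.36 of all features tested. Differences from control were −0.01 with halothane 1 MAC (95% interval −0.29 to 0.27), −0.08 with halothane 3 MAC (−0.36 to 0.20) and −0.11 with isoflurane (−0.39 to 0.17). The widest reach of the 3 intervals is 0.39 below control. Intensities were not analysed, so whether this spot gave a signal above background was not tested.

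The TREK and TRAAK channels respond to membrane stretch, lipids and temperature. Kcnk2 encodes TREK-1, whose loss makes mice less sensitive to halothane. Its ratio was 0.51, 0.47 and 0.35 with halothane 3 MAC and 0.58, 0.39 and 0.26 with isoflurane, against 0.06, 0.24 and 0.32 in controls and −0.27, 0.21 and 0.37 with halothane 1 MAC. The 3 high-dose halothane values lay above all controls, and the isoflurane values overlapped them. The differences from control were 0.24 ± 0.18 (interval −0.15 to 0.62, adjusted p = 0.968) with halothane 3 MAC and 0.20 ± 0.18 (−0.18 to 0.59, 0.826) with isoflurane, and the agents differed by 0.03 at 3 MAC (−0.35 to 0.42). The isoflurane difference was 0.12 without isoflurane replicate 1 and 0.13 without control 1.

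Between the halothane doses Kcnk2 differed by 0.34 ± 0.18 (3 MAC minus 1 MAC, interval −0.04 to 0.73, adjusted p = 0.317 in limma). That value was 0.16 without halothane 1 MAC replicate 1, the single array of the 12 on which Kcnk2 lay below the pool. At 1 MAC the difference from control was −0.11 (interval −0.49 to 0.28) and became 0.08 without that array.

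Kcnk10, which encodes TREK-2, varied most among the channel genes. Its ratio was 1.10, −0.05 and 0.28 with halothane 1 MAC and 0.08, −0.19 and −1.10 in controls. With halothane 3 MAC it was 0.09, −0.47 and 0.48, and with isoflurane −0.02, 0.04 and 0.12. Its residual SD of 0.49 was at percentile 88.1 of all features, and the groups overlapped in each comparison made. Halothane 1 MAC exceeded control by 0.84 ± 0.35 (interval 0.07 to 1.62, unadjusted p = 0.0352 and adjusted p = 0.626 in limma). This rested on an array in each group: the difference was 0.52 without halothane 1 MAC replicate 1 and 0.49 without control 3. Against control, halothane 3 MAC differed by 0.43 (−0.34 to 1.21) and isoflurane by 0.45 (−0.33 to 1.22), and without control 3 these were 0.08 and 0.10.

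Kcnk4, which encodes TRAAK, was below the pool on all 12 arrays, the controls included. Its ratio was −0.53, −0.69 and −0.80 in controls, −1.01, −0.38 and −0.02 with halothane 1 MAC, −0.74, −0.49 and −0.46 with halothane 3 MAC and −0.58, −0.55 and −0.27 with isoflurane. Its control mean of −0.67 ± 0.13 (SD, n = 3) was at percentile 0.973 of all features, and 2.96% of features with 12 values were below 0 on all of them. An offset shared by all arrays cancels in the comparisons, which gave 0.21 (interval −0.28 to 0.69), 0.11 (−0.38 to 0.60) and 0.20 (−0.28 to 0.69) against control for halothane 1 MAC, halothane 3 MAC and isoflurane. The first of these was 0.48 without halothane 1 MAC replicate 1 and −0.02 without halothane 1 MAC replicate 3. The second was 0.05 to 0.20 and the third 0.10 to 0.28 with any one array left out.

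The TASK channels are shut by extracellular acid and by receptors that act through Gq. Kcnk3, which encodes TASK-1, had ratios of 0.31, 0.56 and 0.51 with halothane 3 MAC and −0.17, 0.28 and 0.27 with halothane 1 MAC. With isoflurane they were 0.49, 0.12 and −0.25, and in controls 0.02, 0.46 and 0.52. The doses of halothane did not overlap, although the lowest 3 MAC value exceeded the highest 1 MAC value by little, and the difference was 0.34 ± 0.22 (3 MAC minus 1 MAC, interval −0.14 to 0.81, adjusted p = 0.407 in limma), which was 0.19 without halothane 1 MAC replicate 1. Halothane exceeded isoflurane at 3 MAC by 0.34 ± 0.22 (−0.13 to 0.82, 0.513), which was 0.16 without isoflurane replicate 3 and 0.53 without isoflurane replicate 1. Neither dose nor agent separated from the controls, from which the differences were −0.21, 0.13 and −0.21 for halothane 1 MAC, halothane 3 MAC and isoflurane. Single arrays moved each of these. The first was −0.36 without control 1 and −0.06 without halothane 1 MAC replicate 1, the second −0.03 without control 1 and 0.23 without control 3, and the third −0.40 without isoflurane replicate 1 and −0.02 without isoflurane replicate 3.

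Kcnk9, which encodes TASK-3, was as flat as Kcnk13. Its ratios ran from −0.11 (halothane 1 MAC replicate 2) to 0.15 (halothane 1 MAC replicate 3), and its residual SD of 0.092 was at percentile 1.98. Controls read 0.10, 0.06 and 0.13. As for Kcnk13, signal above background was not tested. Differences from control were −0.09 (interval −0.37 to 0.18), −0.06 (−0.34 to 0.22) and −0.10 (−0.38 to 0.18) for halothane 1 MAC, halothane 3 MAC and isoflurane, all within 0.38 of 0 at the ends of their intervals.

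TWIK channels pass little current at the cell surface. Kcnk6, which encodes TWIK-2, had its highest mean with isoflurane, where the 3 values (0.73, 0.04 and 0.28) include both the highest and the lowest of the 9 treated arrays. It read 0.10, 0.14 and 0.36 with halothane 3 MAC, 0.28, 0.06 and 0.17 with halothane 1 MAC and −0.28, 0.30 and −0.24 in controls. Controls 1 and 3 were its lowest values on any array, and control 2 was above 7 of the 9 treated ones. The isoflurane difference was 0.43 ± 0.21 (interval −0.02 to 0.88, adjusted p = 0.529), and was 0.61 without control 2 and 0.24 without isoflurane replicate 1. Halothane differed from control by 0.25 (−0.20 to 0.70) at 1 MAC and by 0.27 (−0.18 to 0.73) at 3 MAC. Without control 2 these were 0.43 and 0.46, and without control 1 they were 0.14 and 0.17. The agents at 3 MAC differed by −0.15 (−0.60 to 0.30), which was 0.04 without isoflurane replicate 1 and −0.31 without isoflurane replicate 2.

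Kcnk1, which encodes TWIK-1, stood at exactly 0 on 8 of 12 arrays and was not tested. An exact 0 was treated as missing. Its 4 other ratios were −0.51 on control 2, 1.43 and −0.32 on halothane 1 MAC replicates 1 and 2, and −0.46 on halothane 3 MAC replicate 3. At least 8 exact zeros were found in 355 of 12750 named probes (2.78%). With zeros kept as values, Kcnk1 differed from control by 0.54 with halothane 1 MAC, 0.02 with halothane 3 MAC and 0.17 with isoflurane (adjusted p = 0.605, 1 and 1 in limma to 3 digits), each with an interval of 0.85 to either side.

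As a family, no channel gene passed in a comparison, and in most comparisons few features of the array did. With limma and Benjamini-Hochberg adjustment over 16546 features, 0 of 8 passed between halothane 1 MAC and control (0% of all features), halothane 3 MAC and control (0%) and isoflurane and control (0.0725%). Likewise 0 of 8 passed between the halothane doses (0%) and between the agents at 3 MAC (3.51%), and 0 of 8 in a moderated F test of any difference among the 4 groups (0.205%), where Kcnk12 had the smallest adjusted p of the 8 (0.102).

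At an unadjusted p under 0.05 there were 2 of 8 between halothane 1 MAC and control (7.54% of all features), Kcnk10 and Kcnk12, both higher. There were 0 of 8 for halothane 3 MAC (6.59%) and 0 of 8 for isoflurane (10.1%) against control. Kcnk12 alone was below 0.05 between the doses (18.5%), between the agents (16.8%) and in the F test (17.7%).

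Against control, 4 of 8 channel genes stood above 0 with halothane 1 MAC (60.8% of all features), 5 with halothane 3 MAC (51.1%) and 5 with isoflurane (50.6%). Without halothane 1 MAC replicate 1 the first count was 6 of 8 (50.4%). Their median differences were 0.10, 0.12 and 0.20, and those of all features 0.08, 0.005 and 0.004. These comparisons share their control arrays. The groups did not overlap for Kcnk12 with halothane 1 MAC (higher, as for 6.5% of features, with 3.99% lower) and for Kcnk2 with halothane 3 MAC (higher, 9.11%, with 7.13% lower). With isoflurane all 8 genes overlapped the controls, where 12.7% of features lay wholly above and 10% wholly below.

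Between the halothane doses, Kcnk3 lay wholly higher at 3 MAC (12% of features did) and Kcnk12 wholly lower (15.4%). Between the agents at 3 MAC, Kcnk12 lay wholly lower with halothane (19.5%), and none of the 8 lay wholly higher (17.8%). The median absolute difference between the agents was 0.07 over the 8 genes and 0.19 over all features. The 95% interval of a difference reached a median of 0.45 to either side for the channel genes, about 0.48 for all features.

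**Figure D4:**
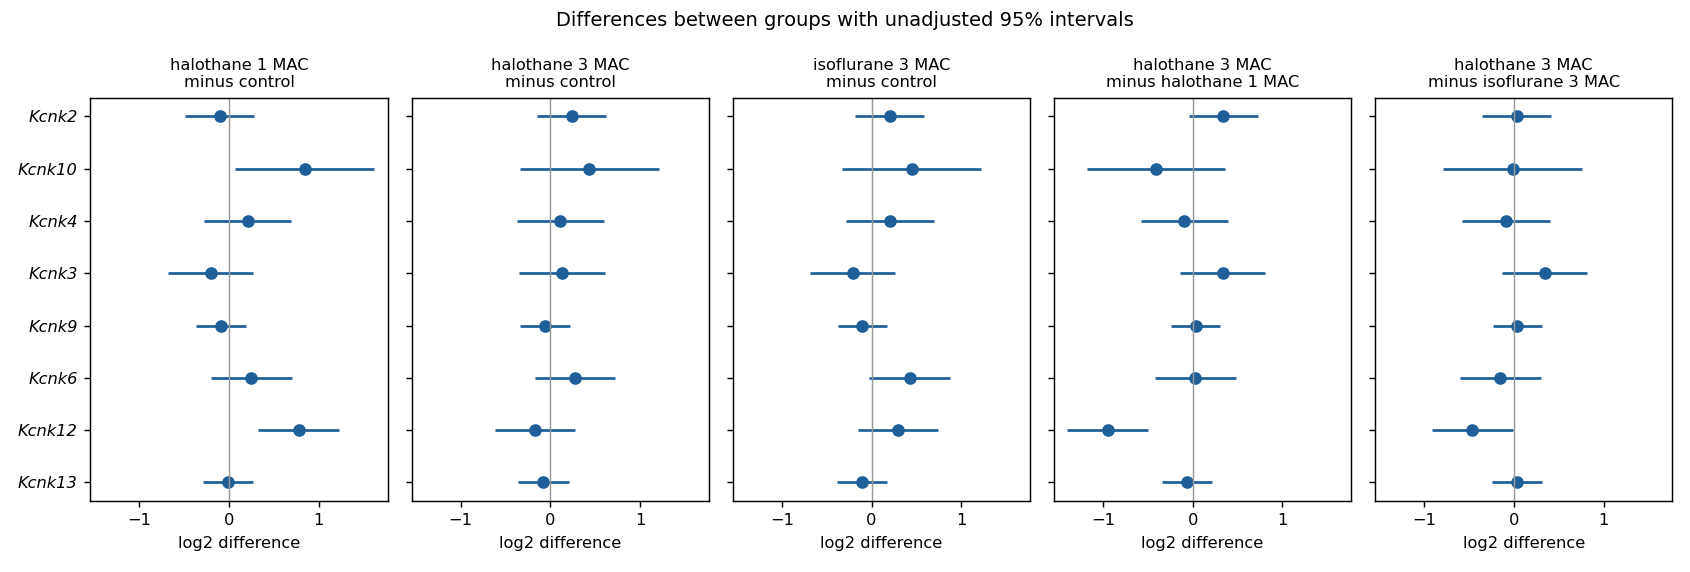
Log2 differences between groups (points) for the 8 channel genes tested in 5 comparisons, 1 panel each, with 95% intervals from the fit (lines, not adjusted for the number of tests). Kcnk12 lies above 0 for halothane 1 MAC minus control (0.77) and below 0 in both comparisons of halothane 3 MAC with another treatment (−0.95 and −0.47), and most other intervals cover 0.

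Partners that bind these channels or carry them to the membrane were measured for 16 of 21 listed symbols. No partner passed against control or between the halothane doses. Sort1, the sorting receptor sortilin that brings TREK-1 to the cell surface, was lower with halothane than with isoflurane at 3 MAC (−0.95 ± 0.17, adjusted p = 0.0207 in limma), and stood at 0.79 ± 0.17 for isoflurane against control (0.116). The latter passed without halothane 1 MAC replicate 1 (0.0336), as did 386 of 16546 features, and not without control 2 (0.62, 0.308). The popeye protein gene Bves, whose product binds TREK-1, differed by −1.06 ± 0.26 between 3 and 1 MAC halothane (0.0804). Ywhag, an adaptor protein of the family that helps TASK channels leave the endoplasmic reticulum, differed by 0.45 ± 0.16 (0.177). Without halothane 1 MAC replicate 1 these differences were −0.71 for Bves and 0.28 for Ywhag. The partners had a median difference from control of −0.04, −0.10 and 0.01 with halothane 1 MAC, halothane 3 MAC and isoflurane, and of −0.10, −0.05 and 0.10 without control 2.

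Receptors and effectors of the Gq pathway, through which transmitters shut TASK and TREK channels, were measured for 18 of 19 symbols. The adrenergic receptor gene Adra1d was lower with halothane than with isoflurane at 3 MAC (−1.48 ± 0.22, adjusted p = 0.0124 in limma). Against control it stood at 0.86 ± 0.22 with isoflurane (0.151) and −0.62 ± 0.22 with halothane 3 MAC (0.706). The isoflurane difference of Adra1d was 0.59 without control 2. The phospholipase gene Plcb1 differed by 0.67 ± 0.15 between 3 and 1 MAC halothane (0.0631). No gene of this list passed against control or between doses. Without control 2, Adra1d passed for halothane 3 MAC against control (−0.89, adjusted p = 0.022), as did 465 of 16546 features. Between the doses, also without control 2, Adra1d (−0.73, 0.0243) and Plcb1 (0.0226) passed, where 698 of 16546 features did. None of 9 measured genes of the Gs and Gi pathway to protein kinase A, which phosphorylates TREK-1, passed in any of the 5 comparisons of groups, the smallest adjusted p being 0.212 for the G protein gene Gnai3 between the halothane doses (0.73 ± 0.29), a difference that was 0.35 without halothane 1 MAC replicate 1.

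Likeness of pattern was measured as Pearson's r over the 12 arrays among 8932 other named genes with 12 values, for the 3 channel genes of smallest p in the F test, as a description with no test. The arrays share 1 control pool, and r is also given without halothane 1 MAC replicate 1. Kcnk12 was most like Tex264 (0.95, and 0.95 on 11 arrays), Psmb8 (0.95, 0.93) and Hpgd (0.94, 0.92) and least like Tnmd (−0.95, −0.91). Tex264 is a receptor for turnover of endoplasmic reticulum, Psmb8 an immunoproteasome subunit and Hpgd the prostaglandin dehydrogenase. Kcnk10 was most like Pcsk5 (0.90, 0.84), Dapl1 (0.90, 0.86) and Rpp25l (0.89, 0.92) and least like the glycine receptor subunit Glrb (−0.92, −0.89). Control 3, the lowest array of Kcnk10 (−1.10), was also the lowest for Pcsk5, Dapl1 and Rpp25l and the highest for Glrb. These r values were not computed without control 3. Kcnk2 was most like Tmem165 (0.92, 0.82), Dmac1 (0.92, 0.78) and Cilk1 (0.90, 0.77), and least like cyclin F, Ccnf (−0.92, −0.77).

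Psmb8 shows what such a likeness consists of. It read 0.63, 0.17 and 0.20 with halothane 1 MAC, −0.71, −0.87 and −0.72 with halothane 3 MAC and 0.10, −0.43 and −0.07 with isoflurane. On controls 1, 2 and 3 it read −0.14, −0.99 and 0.07. As for Kcnk12, control 2 lay far below the other controls and near the halothane 3 MAC arrays.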

How the data were processed

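Two-colour arrays of 12 samples were used. The deposited values are log ratios, read as log10 because they stop at exactly 2 (a 100-fold ratio). Per the labels, Cy5 held the sample and Cy3 the control pool. Partek is named per the submitters' processing notes. How background and dyes were corrected is not given in the sources used here. Precision is limited by the number of arrays, and intensities were not analysed here. No value columns were left unused (0).

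Values were multiplied by 3.32 to give log2. Of 21575 spots, 12750 had 1 gene symbol, 5 several and 8820 none. Exact zeros (6.0% of values) were treated as missing, and 471 unnamed spots at the limit on at least 10 arrays were left out. Probes of a gene with values on every array were averaged. A gene without such a probe was read from its probe with most values. Features with at least 2 values in every group (16546) entered limma 3.58.1 (R 4.3.3; 4 group means, eBayes, two-sided tests, 8 residual and 3.46 prior degrees of freedom, Benjamini-Hochberg, threshold 0.05). The fit was tested on simulated data. Tables and plots used Python 3.11.15, pandas 2.3.3, numpy 2.4.6 and matplotlib 3.10.9. Named genes are all members, any other listed gene past the threshold or of smallest p in a direction, and the genes most alike in pattern. Of these the text names those it needs. Members and lists were chosen with earlier results of these data known. The pairing of arrays by replicate number was tried as an alternative, as were other scalings, weights and filters.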

Additional observations from a re-analysis of the deposited data

Results flagged for a closer look

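Kcnk12 was set apart because its arrays moved in opposite directions in 2 groups relative to the control mean. Each halothane 1 MAC array and each isoflurane array lay above the control mean and each halothane 3 MAC array below it. Tested as a difference, halothane 3 MAC minus halothane 1 MAC was −0.95 ± 0.21 (SE, 3 arrays against 3, adjusted p = 0.062 in limma) and halothane 3 MAC minus isoflurane 3 MAC was −0.47 ± 0.21 (adjusted p = 0.277). Neither passed the threshold. Control 2 (−0.49) lies within 0.03 of the lowest halothane 3 MAC array (−0.51), and the control mean of −0.11 includes it. Without control 2 the control mean is 0.08, and isoflurane replicate 3 (0.04) then lies below it. The opposite directions of every halothane 3 MAC and every isoflurane array therefore rest on control 2. The mean differences from control kept opposite signs without control 2, −0.36 for halothane 3 MAC and 0.11 for isoflurane.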

How the results depend on the processing

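With any one array left out, 0 to 1 of 8 members passed between the halothane doses (1 without control 2) and 0 in each of the other 5 tests. The member counts were also 0 under quantile normalisation, median centring with scaling to one median absolute deviation, exact zeros kept as values, values on all 12 arrays only and each probe as its own feature. With arrays weighted by their fit, 1 member, Kcnk12, passed between the halothane doses, 1 between the agents (−0.43, adjusted p = 0.0214) and 1 in the F test (0.0309). The same counts of 1 were found without control 2 and halothane 1 MAC replicate 1 together (between the agents −0.47, 0.0346; F test 0.0219), a setting chosen after seeing the data. The weights changed all arrays at once, from 0.05 for halothane 1 MAC replicate 1 to 2.85 for halothane 3 MAC replicate 1, and the cause was not tested. Of 760 member values over the 19 alternatives other than that setting chosen later, 730 kept their sign and 30, all uncalled, changed it.

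Counts over all features moved more, as did the background of the member counts. Between isoflurane and control 12 passed as reported, 4 with quantile normalisation, 7 with zeros kept, 346 with array weights, 270 without both named arrays and 1 to 386 with one array left out. Between halothane 3 MAC and control 0 became 721 with weights, 1791 without both arrays and 0 to 465. Between the halothane doses 0 became 157 with quantile normalisation, 6 with the scaling, 4194 with weights, 1637 without both arrays and 0 to 698. Between the agents 580 became 4379, 2994 and 0 to 2047. Between halothane 1 MAC and control 0 became 1 with quantile normalisation, with the scaling or with zeros kept, 4 with weights, 2 without both arrays and 0 to 4. In the F test 34 became 2, 7 and 1 with those 3 settings, 2485 with weights, 2943 without both arrays and 1 to 928.

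No pairing of the arrays by replicate number was seen. Deviations from the group means correlated at −0.08 to 0.10 over 18 same-numbered pairs (0 above 0.1). Over 36 pairs of different number they correlated at −0.15 to 0.17 (2 above 0.1). Of 12 arrays, 5 correlated best with an array of their own number. Groups of 3 that include the 2 arrays described above limit this look, and a shared mother was not tested. With a replicate block 0 members passed in any test, Kcnk12 reached an adjusted p of 0.0677 between the doses, and 1 feature passed between isoflurane and control, 1 in the F test and 431 between the agents.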
